A study of Mus musculus with 11 samples.

Results

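The interferon response genes described here were the 83 of 15274 genes in the table whose symbols matched a fixed list of names. The list took in symbols that begin with Ifi and a digit, Ifit, Ifih, Ifnar, Ifngr, Oas, Gbp, Isg, Irgm or Trim30, factors of the Irf and Stat families, and single genes such as Rsad2, Usp18, Zbp1, Igtp, Iigp1 and Mx1. The rule uses names alone, and all 83 passed the filter on low values (at least 10 normalised counts in at least 2 libraries). Expression was measured by RNA sequencing of total RNA from uninjured and injured heart regions of mice aged 8 weeks, in libraries titled day 7. There were 11 libraries from 6 animals: in C57BL/6J (B6) 3 uninjured and 3 injured regions, and in C3H/HeJ (C3H) 3 uninjured and 2 injured regions. No transgene, deletion or drug is named for any group, each region was compared with another region of the heart and not with an unoperated animal, and no source used here says what injury was made. The labels number the mice, so both regions of 5 animals were measured, and samples are taken as separate animals within a group.

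Interferons are secreted by cells that sense foreign or misplaced nucleic acid. Type I interferons act through Ifnar1 and Ifnar2 and type II interferon through Ifngr1 and Ifngr2, and the receptors activate Stat factors, which bind interferon-stimulated response elements (ISRE) together with Irf9, or gamma-activated sites (GAS) as dimers. The induced genes include sensors, antiviral effectors and GTPases that attack pathogen vacuoles, and in injured heart macrophages are known as a main site of this response. C3H/HeJ mice are known to carry a defective Tlr4, the lipopolysaccharide receptor. Not every symbol matched by name is known as an interferon target: Ifitm5 acts in bone.

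Between 9699985 and 22138459 reads were assigned to genes per library. All 5 C3H libraries had Xist at 1840 to 8478 normalised counts and the Y-linked Ddx3y at 0.888 to 3.46, and all 6 B6 libraries had Xist at 3.14 to 12.2 and Ddx3y at 1429 to 2221. Strain and sex therefore cannot be told apart in any comparison between strains. Reads were aligned to mm9, a B6 genome, so C3H reads over sequence variants can be undercounted. Differences below are log2 differences of normalised count + 1 with their standard error (SE), a scale that understates changes of low genes, and calls are at an adjusted p under 0.05 from limma with Benjamini-Hochberg adjustment over 14751 genes. Because bulk heart tissue was measured, fewer cells of a type and less RNA per cell cannot be told apart.

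Promoter sequences show how often the known control elements occur in the family. RefSeq promoter windows of build GRCm38.p6, a B6 sequence, were found for 60 of the 83 genes, and the 250 bases before each start were searched on both strands for the ISRE letters (GAAA, any pair of bases, GAAA) and the GAS letters (TTC, any 3 bases, GAA), where a stretch may match both. An ISRE match was present for 27 of the 60 genes (45%), against 936 of 27025 genes with a promoter (3.46%). For GAS the counts were 14 of 60 (23.3%) and 2197 of 27025 (8.13%). The 5 sequences shown are the last 150 bases before the start of Isg15, the ubiquitin-like founder of the family, of Oas3 and Trim30d, whose levels rose in injured C3H hearts, and of Rsad2 and Gbp2b, which differed between the strains. Capitals mark the ISRE match on either strand (a match on the reverse strand reads TTTC, any pair of bases, TTTC).
Isg15 (chr4:156200819-156200968, minus strand): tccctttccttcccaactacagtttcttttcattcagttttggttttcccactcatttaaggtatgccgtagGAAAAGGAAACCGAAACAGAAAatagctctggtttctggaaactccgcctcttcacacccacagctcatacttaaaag
Oas3 (chr5:120777660-120777809, minus strand): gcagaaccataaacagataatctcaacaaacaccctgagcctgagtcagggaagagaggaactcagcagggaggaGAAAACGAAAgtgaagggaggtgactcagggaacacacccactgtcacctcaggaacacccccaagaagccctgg
Trim30d (chr7:104507850-104507999, minus strand): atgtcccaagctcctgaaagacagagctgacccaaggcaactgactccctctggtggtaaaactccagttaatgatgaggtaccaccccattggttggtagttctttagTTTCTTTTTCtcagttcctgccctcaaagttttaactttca
Rsad2 (chr12:26456453-26456602, minus strand): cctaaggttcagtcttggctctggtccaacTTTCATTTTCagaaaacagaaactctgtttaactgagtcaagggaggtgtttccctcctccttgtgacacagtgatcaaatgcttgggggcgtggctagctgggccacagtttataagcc
Gbp2b (chr3:142594697-142594846, plus strand): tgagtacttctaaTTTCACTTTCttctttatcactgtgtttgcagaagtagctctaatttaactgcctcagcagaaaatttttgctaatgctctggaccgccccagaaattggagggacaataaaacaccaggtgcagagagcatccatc
The Isg15 promoter held 3 overlapping matches, which began 78, 72 and 66 bases before the start. The single matches of the others began 75 bases before the start for Oas3, 41 for Trim30d, 120 for Rsad2 and 137 for Gbp2b. By role, ISRE matches were found for 5 of 5 guanylate-binding protein genes with a promoter, 5 of 6 Ifit genes and 4 of 6 Oas genes, and for 0 of 4 receptor genes. They were found for 8 of the 20 genes with a promoter that rose in injured C3H hearts and for 19 of the 40 that did not. The windows of Ifit1 and Ifit1bl2 overlap on opposite strands and hold the same matches, so these counts are not all of separate sites. A match is a run of letters and not a shown binding site, and the C3H sequence was not read.

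The level of the 83 genes differed between libraries of a group. Each gene was centred on its mean over the 11 libraries, and the median over the 83 genes was then taken in each library. This median was 0.35, 0.08 and -0.22 in B6 uninjured libraries 1 to 3, and 0.21, 0.70 and 0.13 in B6 injured libraries 1 to 3. In C3H it was -0.42, -0.37 and -0.38 in the uninjured and 0.28 and -0.11 in the injured libraries. The 3 C3H uninjured libraries were the lowest of all 11, and B6 injured library 2 was the highest. The B6 groups overlapped, because B6 uninjured library 1 lay above B6 injured libraries 1 and 3.

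**Figure D1:**
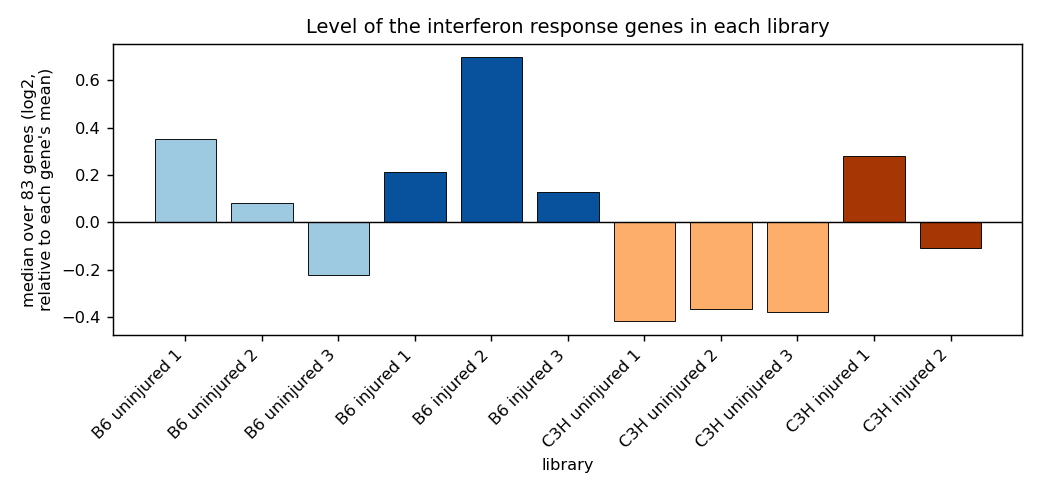
Median over the 83 interferon response genes in each library, on the log2(normalised count + 1) scale relative to the mean of each gene over 11 libraries (y axis), for the 11 libraries (x axis). Light bars are uninjured and dark bars injured regions, in blue for B6 and orange for C3H; the C3H uninjured libraries are lowest (-0.42 to -0.37) and B6 injured library 2 highest (0.70).

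Within animals, the median injured minus uninjured difference over the 83 genes was -0.07 in B6 mouse 1 (31 of 83 genes higher in the injured region), 0.70 in B6 mouse 2 (68 of 83) and 0.37 in B6 mouse 3 (67 of 83). In C3H it was 0.74 in mouse 1 (65 of 83) and 0.41 in mouse 2 (55 of 83). The medians over all 14751 genes in the same animals lay between -0.03 and 0.05. Thus 4 of 5 animals had most of the genes higher in the injured region and B6 mouse 1 did not.

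**Figure D2:**
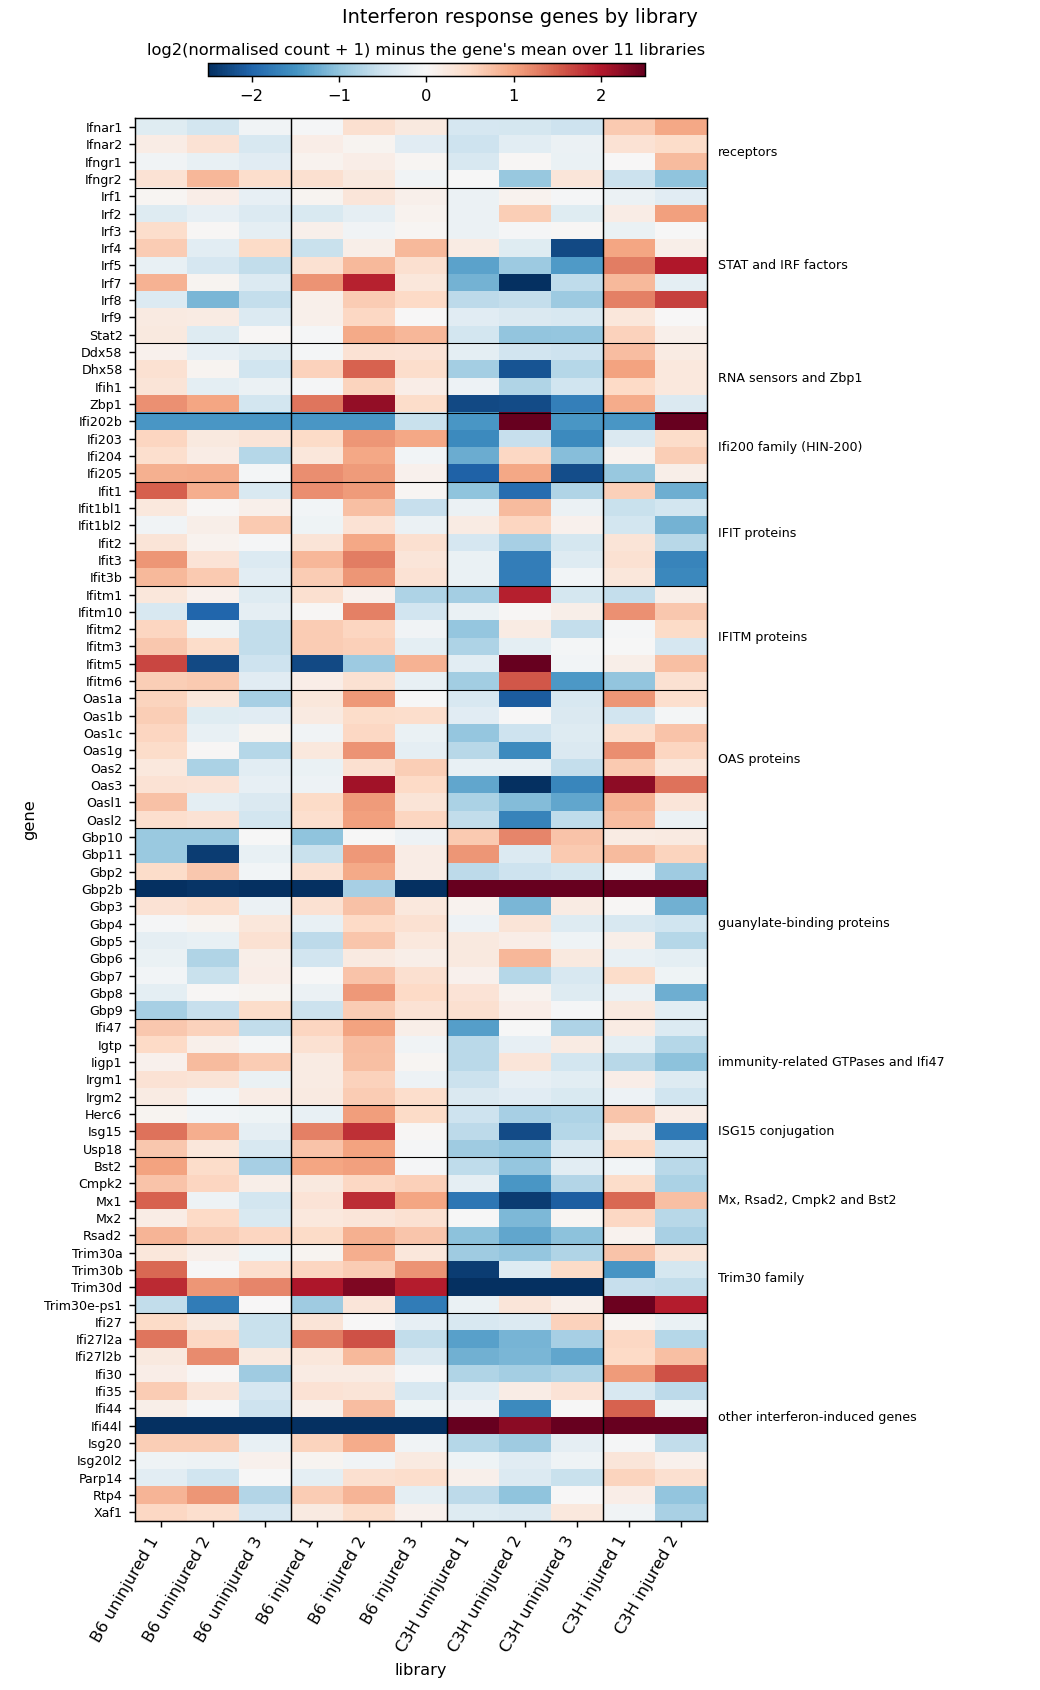
Heat map of interferon response genes (rows, by role; 2 of the 83 are not shown) in the 11 libraries (columns), coloured by log2(normalised count + 1) minus the mean of the gene; the colour scale ends at 2.5 in either direction. Oas3, Mx1, Irf5 and Irf8 lie below their mean in the C3H uninjured and above it in the C3H injured libraries, and Gbp2b, Ifi44l and Trim30d part the strains.

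Injury in B6 hearts changed no interferon response gene past the threshold. Of the 83 genes 0 rose and 0 fell, and over all genes the share called in either direction was 0.0136%. The median difference of the 83 was 0.30, against 0.01 over all genes, and 65 of 83 lay above 0. An unadjusted p under 0.05 was reached by 6 of the 83 genes, among them Gbp11, Ifnar1, Irf5, Irf8 and Trim30d, and by 13.4% of all genes, so the members' share was not above the background. Of the other tools edgeR called 0, and DESeq2 called 1, Irf8 (1.09, adjusted p = 0.0238). With the animal as a fixed or a random block 0 of the 83 were called, and 20 and 16 of all genes. In these fits 15 and 11 of the 83 had an unadjusted p under 0.05. The 13.4% of all genes belongs to the fit without a block, so these 2 counts have no background share beside them. Leaving out B6 uninjured library 3 gave a median of 0.09, and leaving out B6 injured library 2 gave 0.10. In 9 of the 83 genes (Dhx58, Ifit2, Ifnar1, Ifngr1, Irf5, Irf8, Irgm2, Oasl2 and Trim30d) every injured library lay above every uninjured one, and in 1 below. Over all genes these shares were 9.83% and 7.69%, so the first count was near the background.

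Injury in C3H hearts raised 24 of the 83 genes and lowered 2 (over all genes, 15.3% rose and 15.4% fell). The rise covered the RNA sensors and Zbp1 (4 of 4), most Oas genes (6 of 8), 2 of 4 Trim30 genes, 2 of 4 receptor genes and 4 of 11 Stat and Irf factors. The guanylate-binding proteins (0 of 11), immunity-related GTPases (0 of 5) and Ifitm genes (0 of 6) had no call. Over the 83 genes the median difference was 0.55 (all genes 0.01), and 58 lay above 0. Without C3H injured library 1 or 2 the injured C3H group holds 1 library. Each of these fits called fewer genes than the 26 called with all libraries, and some of their calls were not among the 26. Of the 26 calls, 8 were kept whichever library was left out: Ifi30, Ifnar1, Irf5, Irf8, Mx1, Oas3, Trim30a and Trim30d. Leaving out both regions of C3H mouse 2 gave 13 higher and 1 lower. With the animal as a fixed block 30 rose and 1 fell, and as a random block 29 and 2, the additions including Ifi44 (1.55, adjusted p = 0.00137, and 1.38, adjusted p = 0.0121).

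**Figure D3:**
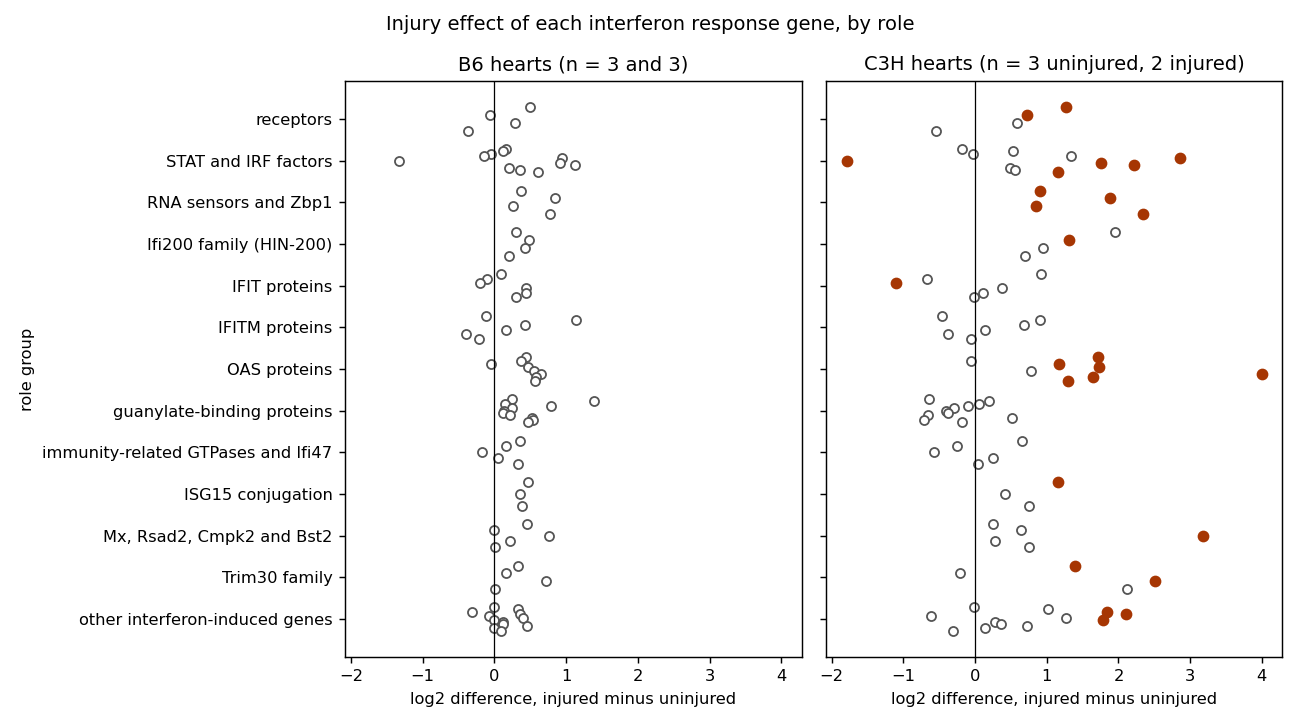
Injured minus uninjured log2 difference (x axis) of each of the 83 genes, by role (y axis), in B6 (left) and C3H (right). Each point is a gene, filled where the adjusted p is under 0.05; 26 points are filled in C3H and 0 in B6, and all 11 guanylate-binding proteins lie above 0 in B6 and 3 of 11 in C3H.

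Most macrophage markers also rose in injured C3H hearts. Summed over all 12 markers, normalised counts were 10614 to 19983 in C3H uninjured and 70805 to 121546 in C3H injured libraries, against 19205 to 25062 and 29053 to 36098 in B6. Of the 12 markers 9 rose in C3H and 0 in B6, and 2 lay below 0 in each strain. Over all genes 15.3% rose and 15.4% fell in C3H. Cd68, a lysosomal protein of macrophages, rose in C3H by 4.09 (SE 0.26, adjusted p = 9.35e-06). Conventional dendritic cell markers summed to 284 to 318 in C3H uninjured and 3153 to 5437 in C3H injured libraries, but only 2 of 8 passed, Itgax and Flt3. Itgax, which macrophages also express, was alone at 2765 and 5132 in the injured libraries (6.55, SE 0.40, adjusted p = 9.35e-06), and Flt3 rose by 3.39 (SE 0.77, adjusted p = 0.00685), a call lost with C3H injured 2 left out (adjusted p = 0.0607). Of the other lists, 4 of 7 fibroblast markers and 1 of 6 neutrophil markers rose, and 6 of 8 cardiomyocyte and 2 of 8 endothelial markers fell, while T and NK cell (0 of 11), B cell (0 of 5) and plasmacytoid dendritic cell markers (0 of 4) had no call. Sums for T and NK cells were 82.2 to 192 in C3H uninjured and 182 to 206 in C3H injured libraries. No marker found in the table was at 0 in all libraries of a group, and the part of these cell types in the interferon gene results was not tested.

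Among the receptors, the type I chain Ifnar1 rose in C3H. It was at 849, 835 and 786 in the uninjured and 1772 and 2206 in the injured C3H libraries, a difference of 1.26 (SE 0.21, adjusted p = 0.00128). In B6 it was at 915, 817 and 1065 uninjured and 1106, 1488 and 1348 injured, a difference of 0.49 (SE 0.19, adjusted p = 0.364) without overlap. Its partner Ifnar2 was at 828, 984 and 1070.0 uninjured and 1532 and 1634 injured in C3H, a rise of 0.73 (SE 0.25, adjusted p = 0.0446) that was lost with B6 uninjured 1, B6 injured 1 or 2, C3H uninjured 1, 2 or 3 or C3H injured 1 or 2 left out (adjusted p 0.0518 to 0.203). The B6 value for Ifnar2 was -0.06. For the interferon gamma receptor, Ifngr1 was at 0.58 in C3H and 0.28 in B6 and Ifngr2 at -0.55 and -0.36, with no call. Ifngr1 passed in C3H with the animal as a random block (0.59, adjusted p = 0.0244) or a fixed block (0.59, adjusted p = 0.0444), with DESeq2 (0.63, adjusted p = 0.0475) and with quantile normalisation (0.75, adjusted p = 0.0344). Both values also moved with single libraries: Ifngr1 was at 0.98 without C3H injured library 1, and Ifngr2 at -0.91 (adjusted p = 0.0319) without C3H uninjured library 2.

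Of the transcription factors, Irf5 and Irf8, which act in macrophages and dendritic cells, rose in C3H whichever library was left out. Irf5, which drives inflammatory cytokine genes, was at 126, 169.6 and 118 in C3H uninjured and 769.6 and 1279 in C3H injured libraries. In B6 it was at 278, 236 and 206 uninjured and 412, 561 and 419 injured, so that injured libraries lay above uninjured ones in both strains. The difference was 2.86 (SE 0.28, adjusted p = 6.14e-05) in C3H and 0.94 (SE 0.25, adjusted p = 0.364) in B6. Irf8, needed for monocyte and dendritic cell development, was at 236, 245 and 199 uninjured and 898 and 1224 injured in C3H. Its B6 values were 293, 168 and 245 uninjured and 409, 579.8 and 527 injured, again without overlap. Its difference was 2.21 (SE 0.28, adjusted p = 0.000257) in C3H and 1.12 (SE 0.25, adjusted p = 0.364) in B6. Irf7, the amplifier of type I interferon output, was at 500.0, 180.1 and 733 in C3H uninjured and 1978 and 953 in C3H injured libraries. That rise of 1.76 (SE 0.60, adjusted p = 0.0434) was lost with B6 uninjured 2, B6 injured 1, C3H uninjured 2 or C3H injured 1 or 2 left out (adjusted p 0.0533 to 0.277), and with only the groups compared (adjusted p = 0.0699). In B6, Irf7 ranged from 888 to 2072 uninjured and from 1378 to 4313 injured, with overlap, and the difference was 0.91 (SE 0.54, adjusted p = 0.456).

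Stat2, a signal transducer of the type I receptor, was at 405, 279.5 and 287 in C3H uninjured and 831 and 611 in C3H injured libraries, a rise of 1.16 (SE 0.32, adjusted p = 0.0171) that was lost with C3H uninjured 3 or C3H injured 1 or 2 left out (adjusted p 0.0512 to 0.138). For Irf9, its DNA-binding partner, the difference was 0.49 in C3H and 0.20 in B6. Irf1, a gamma-responsive factor, was at -0.18 and 0.16, and Irf3, which is activated after translation, at -0.03 and -0.05. Stat2 in B6 was at 0.61. Irf2 and Irf4 had no call in either strain.

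The 3 RNA sensors and Zbp1 all rose in C3H. Zbp1, a sensor of Z-form nucleic acid tied to necroptosis, was at 40.6, 40.8 and 59.5 uninjured and 374 and 153 injured. The rise was 2.35 (SE 0.57, adjusted p = 0.00936) and was lost with C3H injured 1 left out (adjusted p = 0.107). In B6, Zbp1 was at 434, 389.9 and 144 uninjured and 501, 903 and 272 injured, with overlap (0.78, SE 0.51, adjusted p = 0.495). Ddx58, which encodes the RNA sensor RIG-I, was at 465, 398 and 388 uninjured and 950.3 and 643 injured in C3H, a rise of 0.91 (SE 0.24, adjusted p = 0.0149). The related sensor Ifih1 (MDA5) rose by 0.85 (SE 0.27, adjusted p = 0.0351), from 369, 238 and 283 to 568 and 485, and Dhx58 (LGP2), their regulator, by 1.88 (SE 0.48, adjusted p = 0.0120). The call was lost for Ddx58 with C3H injured 1 left out (adjusted p = 0.169), for Dhx58 with C3H injured 1 left out (adjusted p = 0.110) and for Ifih1 with C3H uninjured 2 or 3 or C3H injured 1 or 2 left out (adjusted p 0.0850 to 0.187). With only the groups compared the Ifih1 call was lost as well (adjusted p = 0.0577). The B6 differences of Ddx58, Ifih1 and Dhx58 were 0.36, 0.26 and 0.85.

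In the Ifi200 family, whose products bind DNA, 1 of 4 genes rose in C3H. Ifi203 was at 179, 363 and 180.3 uninjured and 423 and 748 injured (1.30, SE 0.35, adjusted p = 0.0145), a call lost with C3H uninjured 3 or C3H injured 2 left out (adjusted p 0.0539 to 0.180). Ifi204 was at 216, 729.7 and 244 uninjured and 547 and 781 injured (0.95, SE 0.51, adjusted p = 0.174), and its groups overlapped because C3H uninjured library 2 was high. Without that library it passed (1.50, adjusted p = 0.0197). The B6 differences were 0.48 for Ifi203 and 0.42 for Ifi204. Members of this family lie side by side and are similar in sequence, so reads of one can be assigned to another.

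Oas enzymes make the short oligoadenylates that switch on RNase L, and 6 of 8 Oas genes rose in C3H, with a median of 1.47. Oas3 had the largest increase of the 83 genes, from 25.7, 4.19 and 20.4 in C3H uninjured to 309.6 and 169 in C3H injured libraries (4.00, SE 0.72, adjusted p = 0.00207). In B6 it was at 84.0, 83.0 and 56.6 uninjured and 59.5, 284 and 92.0 injured, and B6 injured library 1 lay among the uninjured ones (0.65, SE 0.65, adjusted p = 0.648). Oas1a was at 195, 59.7 and 195 uninjured and 551 and 341 injured in C3H, a rise of 1.71 (SE 0.55, adjusted p = 0.0345) against 0.45 in B6. Oas2 was at 297, 294 and 222 uninjured and 527 and 407 injured, and its difference of 0.78 (SE 0.33, adjusted p = 0.0926) did not pass (0.55 in B6). Named after their values were seen, the others that rose were Oas1g (1.73), Oasl1 (1.65), Oasl2 (1.30) and Oas1c (1.17), while Oas1b was at -0.05. Calls were lost for Oas1a with C3H uninjured 2 or C3H injured 1 or 2 left out (adjusted p 0.0822 to 0.206), for Oas1g with C3H uninjured 2 or C3H injured 1 or 2 left out (adjusted p 0.0521 to 0.135) and for Oasl1 with C3H injured 1 left out (adjusted p = 0.0788). They were lost for Oasl2 with C3H uninjured 2 or C3H injured 1 left out (adjusted p 0.0824 to 0.248) and for Oas1c with B6 injured 1, 2 or 3, C3H uninjured 1, 2 or 3 or C3H injured 1 or 2 left out (adjusted p 0.0517 to 0.231). With only the groups compared the calls for Oas1a (adjusted p = 0.0618), Oasl2 (adjusted p = 0.0614) and Oas1c (adjusted p = 0.0760) were lost. Oas1c also lost its call with quantile normalisation (adjusted p = 0.166). The Oas1 genes are near-identical neighbours, so how reads were split among them is uncertain.

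Among the antiviral effectors, Mx1, a dynamin-like GTPase that blocks influenza virus and is defective in many inbred strains, rose in C3H. It was at 12.9, 8.38 and 10.7 in C3H uninjured and 131 and 81.3 in C3H injured libraries, a difference of 3.18 (SE 0.59, adjusted p = 0.00224). In B6 it was at 134, 43.6 and 34.2 uninjured and 60.3, 174 and 95.4 injured, with overlap (0.76, SE 0.52, adjusted p = 0.512). Rsad2 (viperin), which makes a chain-terminating nucleotide, was at 241, 197 and 238 uninjured and 517 and 278 injured in C3H, with no overlap. Its difference of 0.75 (SE 0.27, adjusted p = 0.0517) missed the threshold in limma, and passed with edgeR (0.82, adjusted p = 0.0358), DESeq2 (0.82, adjusted p = 0.0205), the fixed block (0.80, adjusted p = 0.0301) and the random block (0.77, adjusted p = 0.0147). Without C3H injured library 2 it was at 1.20 (adjusted p = 0.0257). In B6 it was at 0.01. Mx2 was at 0.27 in C3H and 0.22 in B6, and Bst2 (tetherin), which holds budding virus at the cell surface, at 0.25 and 0.45.

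The classical Ifit, Ifitm and Isg15 genes had few calls. Ifit1, which binds viral RNA caps, was at 239.6, 129 and 288 in C3H uninjured and 737 and 208 in C3H injured libraries, with C3H injured library 2 among the uninjured values (0.92, SE 0.61, adjusted p = 0.275). It passed with the animal as a fixed block (1.15, adjusted p = 0.00883). Ifit3 was at 427, 142 and 379 uninjured and 621 and 151 injured (0.11, and 0.44 in B6), and Ifit1 in B6 at 0.09. Of 6 Ifit genes 1 fell, Ifit1bl2, from 88.1, 112 and 82.6 to 55.3 and 33.2 (-1.10, SE 0.35, adjusted p = 0.0335), a call lost with C3H uninjured 1, 2 or 3 or C3H injured 2 left out (adjusted p 0.0503 to 0.282). Ifitm3, which blocks virus entry at endosomes, was at 2424, 3481 and 4023 uninjured and 4131 and 3069 injured in C3H (0.14) and at 0.16 in B6. Isg15 was at 159, 52.3 and 154 in C3H uninjured and 291 and 72.8 in C3H injured libraries, with C3H injured library 2 among the uninjured values (0.42, SE 0.70, adjusted p = 0.678). Usp18, which removes Isg15 and curbs receptor signalling, was at 0.75 in C3H and 0.38 in B6, and Isg15 in B6 at 0.36. Usp18 passed with the fixed block (0.93, adjusted p = 0.0357). Herc6, the mouse ligase for Isg15, rose in C3H by 1.16 (SE 0.34, adjusted p = 0.0224). That call was lost with C3H uninjured 2 or 3 or C3H injured 1 or 2 left out. It was also lost with quantile normalisation (adjusted p = 0.0581).

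The guanylate-binding proteins and immunity-related GTPases had no call after injury in either strain. Of the 11 guanylate-binding proteins, which coat pathogen vacuoles, 3 lay above 0 in C3H (median -0.30) and all 11 in B6. Gbp2 was at 407, 449 and 477 in C3H uninjured and 611 and 349 in C3H injured libraries (0.06, and 0.15 in B6). Among the immunity-related GTPases, which act at the same vacuoles, Igtp was at -0.25 in C3H and 0.16 in B6, and Irgm1 at 0.26 and 0.05. Iigp1 was at 707, 1390.3 and 830.2 uninjured and 705 and 559.7 injured in C3H (-0.57, SE 0.32, adjusted p = 0.196) and at -0.18 in B6. Several of these genes have near-identical copies, among which reads may have been split.

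Of the 4 Trim30 genes, which include the pseudogene Trim30e-ps1, 2 rose in C3H. Trim30d was at 5.94, 5.23 and 5.33 in C3H uninjured and 36.3 and 35.3 in C3H injured libraries, a difference of 2.50 (SE 0.34, adjusted p = 0.000385). In B6 it was at 204, 118 and 128 uninjured and 227, 281 and 217 injured, without overlap (0.72, SE 0.30, adjusted p = 0.365). Trim30a, chosen after its values were seen, rose by 1.39 (SE 0.27, adjusted p = 0.00267), from 274, 259.6 and 300.1 to 837 and 637. Of the 12 remaining genes 3 rose in C3H, among them Ifi30. Ifi30, the lysosomal thiol reductase GILT of antigen-presenting cells, was at 481, 447 and 478 uninjured and 1693 and 2418 injured, a difference of 2.11 (SE 0.29, adjusted p = 0.000466). Its B6 values were 900.4, 823 and 437 uninjured and 935, 925 and 794 injured, with overlap (0.36, SE 0.26, adjusted p = 0.536). Ifi27, a mitochondrial and nuclear envelope protein, was at -0.01 in C3H and -0.01 in B6. The others that rose were Ifi44l (1.79, SE 0.61, adjusted p = 0.0417) and Ifi27l2b (1.84, SE 0.63, adjusted p = 0.0444), at mean levels in C3H injured libraries of 184 and 9.62. Ifi44l lost its call with B6 injured 2, C3H uninjured 1, 2 or 3 or C3H injured 1 or 2 left out (adjusted p 0.0503 to 0.335), and Ifi27l2b with B6 uninjured 1 or 3, B6 injured 1 or 2, C3H uninjured 1, 2 or 3 or C3H injured 1 or 2 left out (adjusted p 0.0508 to 0.227). Ifi27l2b also lost its call with the animal as a fixed block (1.80, adjusted p = 0.0837). Quantile normalisation removed the calls for Ifi44l (adjusted p = 0.0865) and Ifi27l2b (adjusted p = 0.177). Ifi44l did not pass with a pseudocount of 0.5 either (adjusted p = 0.0817). For Ifi27l2b the same held with a pseudocount of 8 (adjusted p = 0.0720) and with only the groups compared (adjusted p = 0.0570).

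**Figure D4:**
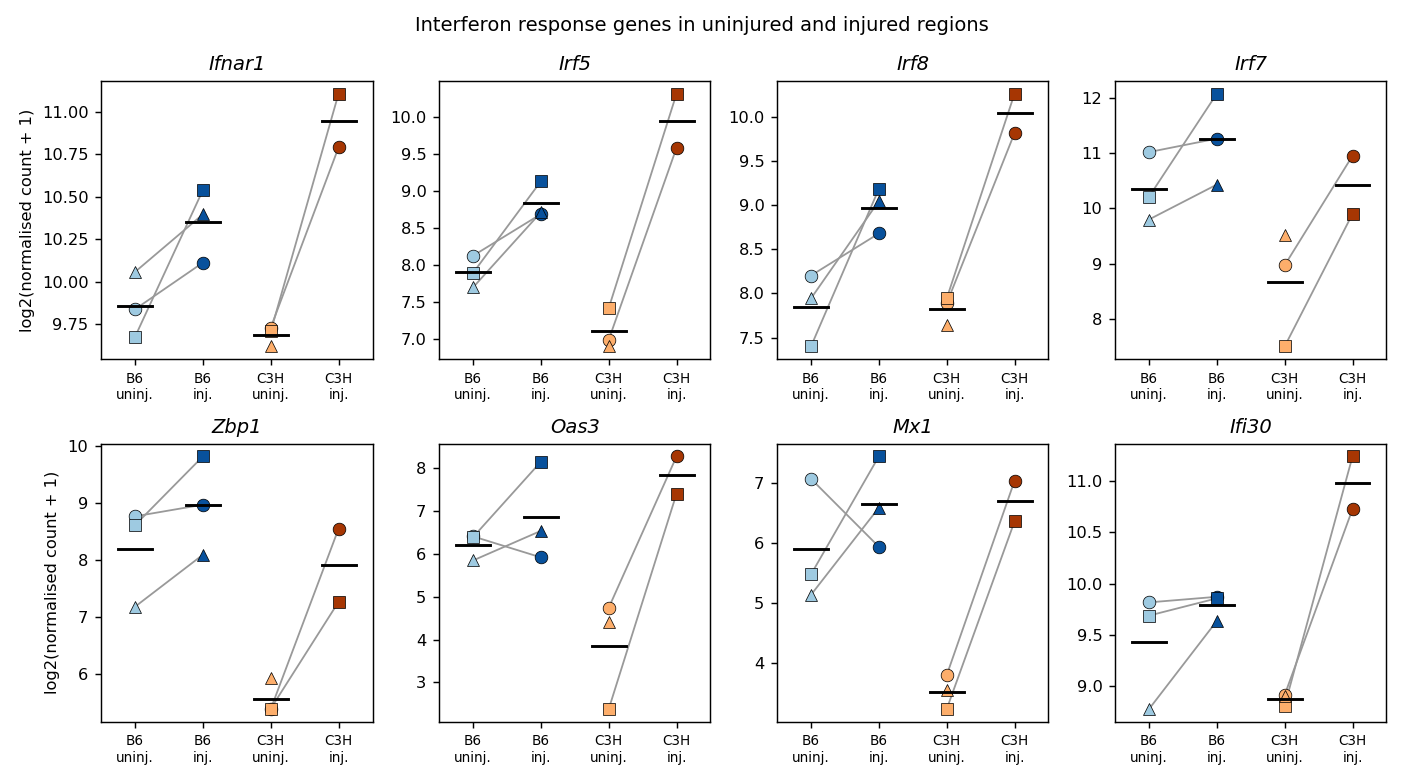
Levels of 8 genes (y axes, log2(normalised count + 1), each with its own range) in uninjured and injured regions of B6 and C3H hearts (x axes). Circles, squares and triangles are mice 1, 2 and 3 of a strain, grey lines join the regions of an animal, and bars are group means; in the C3H panels every injured library lies above every uninjured one.

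Whether injury acted differently in the strains was asked with the interaction term, the C3H effect minus the B6 effect. It passed for 2 of the 83 genes, Irf5 at 1.92 (SE 0.38, adjusted p = 0.0285) and Ifi30 at 1.75 (SE 0.39, adjusted p = 0.0497), both larger in C3H, and for 0 in the other direction (over all genes 1.50% and 0.0678%). The Irf5 call was lost with B6 uninjured 1 or 2, B6 injured 1 or 3, C3H uninjured 3 or C3H injured 2 left out (adjusted p 0.0582 to 0.252), and the Ifi30 call with B6 uninjured 1 or 2, B6 injured 1, 2 or 3, C3H uninjured 1, 2 or 3 or C3H injured 1 or 2 left out (adjusted p 0.0633 to 0.355), so neither was kept in every such fit. The B6 and C3H effects share no libraries. For the same term 5 of 12 macrophage markers passed the threshold, among them Cd68 (3.07, SE 0.36, adjusted p = 0.00394), whose call was lost without both regions of C3H mouse 2. The calls for Adgre1, Cd14, Cx3cr1 and Lyz2 were each lost in at least 1 fit that left out a single library. The part of the macrophage markers in the Irf5 and Ifi30 results was not tested.

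The other interaction values did not pass in limma. Oas3 was at 3.34 (SE 0.97, adjusted p = 0.133) and passed with the animal as a fixed block (3.63, adjusted p = 0.0175), as a random block (3.46, adjusted p = 0.0222) and with DESeq2 (2.86, adjusted p = 0.0384). Trim30d was at 1.79 (SE 0.45, adjusted p = 0.0794) and passed with the random block (1.78, adjusted p = 0.0208) and DESeq2 (2.02, adjusted p = 0.0164). Mx1 was at 2.42 (SE 0.79, adjusted p = 0.180) and passed with DESeq2 (2.68, adjusted p = 0.0375). The term was 0.77 for Ifnar1, 0.79 for Ifnar2, 0.30 for Ifngr1 and -0.19 for Ifngr2. For the factors it was 0.55 for Stat2, -0.34 for Irf1, 0.02 for Irf3, 0.85 for Irf7, 1.09 for Irf8 and 0.30 for Irf9. Sensors and Ifi200 genes were all above 0, with 0.59 for Ifih1, 0.55 for Ddx58, 1.57 for Zbp1 and 0.53 for Ifi204. For the effectors the term was 0.82 for Ifit1, -0.33 for Ifit3, -0.02 for Ifitm3, 0.06 for Isg15, 0.37 for Usp18, 0.06 for Mx2, 0.75 for Rsad2, 1.27 for Oas1a, 0.24 for Oas2, -0.20 for Bst2 and 0.00 for Ifi27. All 11 guanylate-binding proteins lay below 0 (median -0.65), Gbp2 at -0.09, with Igtp at -0.41, Irgm1 at 0.21 and Iigp1 at -0.39. The median over the 83 was 0.25 (all genes -0.02).

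In uninjured regions most interferon response genes were lower in C3H than in B6. Of the 83, 66 lay below 0 (median -0.51, all genes -0.01). Past the threshold 6 were lower and 3 higher in C3H, and over all genes 1.79% were lower and 1.32% higher. Without B6 uninjured library 3 there were 10 lower, and without B6 uninjured library 1 there were 2. Without B6 uninjured library 2 or C3H uninjured library 3 there were 3 in each case, and without both regions of B6 mouse 3 there were 14. DESeq2 called 14 lower. The calls for Gbp2b, Ifi44l, Rsad2 and Trim30d were kept whichever library was left out, and as stated strain and sex cannot be told apart. Of the 12 macrophage markers 11 lay below 0 in the same comparison (median -0.78), and 1, the chemokine receptor gene Cx3cr1, was lower (-1.91, SE 0.34, adjusted p = 0.00987), a call lost with B6 uninjured 1 left out (adjusted p = 0.0580). Their part in the result was not tested.

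The lower genes in uninjured C3H hearts were led by Trim30d. It was at 5.94, 5.23 and 5.33 in C3H against 204, 118 and 128 in B6, a difference of -4.50 (SE 0.30, adjusted p = 5.47e-06). Rsad2 was at 241, 197 and 238 in C3H and 884, 761 and 711 in B6 (-1.80, SE 0.24, adjusted p = 0.00170), again without overlap. Zbp1, at 40.6, 40.8 and 59.5 against 434, 389.9 and 144, differed by -2.62 (SE 0.51, adjusted p = 0.0160), and Mx1, at 12.9, 8.38 and 10.7 against 134, 43.6 and 34.2, by -2.37 (SE 0.52, adjusted p = 0.0304). Ifi203 was at 179, 363 and 180.3 against 793, 641 and 681 (-1.62, SE 0.31, adjusted p = 0.0152), and Trim30a, chosen after its values were seen, at -0.97 (adjusted p = 0.0489). Calls were lost for Zbp1 with B6 uninjured 1 or 2 or C3H uninjured 2 left out (adjusted p 0.0527 to 0.0873) and for Mx1 with B6 uninjured 1 or 2 or C3H uninjured 1, 2 or 3 left out (adjusted p 0.0506 to 0.118). They were lost for Ifi203 with B6 uninjured 1 or C3H uninjured 3 left out (adjusted p 0.0683 to 0.0776) and for Trim30a with B6 uninjured 1 or 2, B6 injured 3, C3H uninjured 1, 2 or 3 or C3H injured 1 or 2 left out (adjusted p 0.0651 to 0.184). Mx1 and Trim30a also lost theirs with the animal as a random block (adjusted p = 0.0519 and 0.0590). With only the groups compared the Mx1 (adjusted p = 0.0904) and Trim30a (adjusted p = 0.0984) calls were lost too. Trim30a also did not pass with edgeR (adjusted p = 0.0656) or quantile normalisation (adjusted p = 0.0639).

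Higher in uninjured C3H hearts were 2 guanylate-binding proteins and Ifi44l. Gbp2b was at 378, 426 and 449 in C3H and 2.37, 6.22 and 2.36 in B6, a difference of 6.59 (SE 0.58, adjusted p = 6.78e-05). Gbp10 was at 428, 634 and 442 in C3H and 142, 141 and 269 in B6 (1.49, SE 0.33, adjusted p = 0.0296), a call lost with B6 uninjured 1 or 2 or C3H uninjured 2 or 3 left out (adjusted p 0.0744 to 0.133). Ifi44l, whose product is an interferon-induced cytosolic protein and which was chosen after its values were seen, had 0 reads in every B6 library. It was at 46.5, 34.5 and 76.4 in C3H uninjured and 242 and 126 in C3H injured libraries. Against a floor of 3 reads over the B6 group, it was at least 38.9-fold higher in C3H in uninjured and at least 217-fold higher in injured regions, bounds that cover counting error only. The neighbouring Ifi44 was at 359.7, 319 and 226 in B6 uninjured and 297, 107 and 322 in C3H uninjured libraries and had no call between strains.

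The other named genes had no strain call in uninjured regions. The difference was -0.17 for Ifnar1, -0.36 for Ifnar2, 0.00 for Ifngr1 and -0.77 for Ifngr2. For the factors it was -0.79 for Stat2, -0.03 for Irf1, -0.13 for Irf3, -0.80 for Irf5, -1.68 for Irf7, -0.02 for Irf8 and -0.37 for Irf9. Irf7, Irf5 and Stat2 were lower in all 3 C3H libraries than in any B6 library, yet their adjusted p was 0.135, 0.130 and 0.185. Such a lower level without overlap was found for 28 of the 83 genes, and for 1367 of all 14751 genes. Among sensors and effectors it was -0.43 for Ifih1, -0.28 for Ddx58, -0.57 for Ifi204, -1.89 for Ifit1, -1.10 for Ifit3, -0.52 for Ifitm3, -1.88 for Isg15 and -0.94 for Usp18. It was -0.46 for Mx2, -0.96 for Oas1a, -0.05 for Oas2, -2.37 for Oas3, -0.83 for Bst2, -0.11 for Ifi27 and -0.55 for Ifi30. The GTPases were at -0.90 for Gbp2, -0.42 for Igtp, -0.51 for Irgm1 and -0.79 for Iigp1. Without B6 uninjured library 3, 4 of them passed: Bst2 (-1.35, adjusted p = 0.0475), Ifi30 (-0.88, adjusted p = 0.0322), Ifit1 (-2.41, adjusted p = 0.0238) and Gbp2 (-1.11, adjusted p = 0.0446). DESeq2 called Cmpk2, Gbp2, Ifi27l2a, Ifit1, Irf7, Isg15, Oas3 and Oasl1 lower as well.

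In injured regions 5 genes were higher and 3 lower in C3H, and over all genes 3.72% were higher and 3.34% lower. The median difference of the 83 genes was -0.19 (all genes 0.01). Gbp2b stayed high, at 483 and 313 against 3.26, 21.2 and 3.44 (5.70, SE 0.65, adjusted p = 0.000435), and Trim30d low, at 36.3 and 35.3 against 227, 281 and 217 (-2.71, SE 0.34, adjusted p = 0.000859). Higher too were Ifi30 (1.20, SE 0.29, adjusted p = 0.0325), Irf5 (1.11, SE 0.28, adjusted p = 0.0379) and Irf8 (1.07, SE 0.28, adjusted p = 0.0410), whose injured libraries were given above and did not overlap between strains. Of the 12 macrophage markers 5 were higher in C3H in the same comparison (median 1.30), Cd68 by 2.97 (SE 0.26, adjusted p = 9.24e-05), and their part in the result was not tested. Lower were Iigp1, at 705 and 559.7 against 1308, 1909.7 and 1169.9 (-1.19, SE 0.32, adjusted p = 0.0465), and Rsad2, at 517 and 278 against 683, 904 and 786 (-1.05, SE 0.27, adjusted p = 0.0385). The Gbp2b, Ifi44l and Trim30d calls were kept whichever library was left out, and those for the other 5 genes were not. They were lost for Ifi30 with B6 injured 1, 2 or 3 or C3H injured 1 or 2 left out (adjusted p 0.0539 to 0.399), for Irf5 with B6 uninjured 1, B6 injured 1, 2 or 3 or C3H injured 2 left out (adjusted p 0.0504 to 0.483) and for Irf8 with B6 injured 1, 2 or 3, C3H uninjured 3 or C3H injured 1 or 2 left out (adjusted p 0.0509 to 0.443). They were lost for Iigp1 with B6 uninjured 1 or 2, B6 injured 1, 2 or 3, C3H uninjured 3 or C3H injured 1 or 2 left out (adjusted p 0.0503 to 0.425) and for Rsad2 with B6 uninjured 1, B6 injured 1, 2 or 3, C3H uninjured 3 or C3H injured 2 left out (adjusted p 0.0509 to 0.507). With the animal as a random block the Irf8 (adjusted p = 0.0667) and Iigp1 (adjusted p = 0.0520) calls were lost. The Iigp1 call was also lost with edgeR (adjusted p = 0.0524), and the Rsad2 call with only the groups compared (adjusted p = 0.0506). The comparisons between strains share the libraries of the injury effects and are not independent of them.

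For the remaining named genes in injured regions no call was made. The strain difference was 0.60 for Ifnar1, 0.43 for Ifnar2, 0.30 for Ifngr1, -0.95 for Ifngr2 and -0.24 for Stat2. It was -0.38 for Irf1, -0.11 for Irf3, -0.83 for Irf7, -0.08 for Irf9, 0.16 for Ifih1, 0.27 for Ddx58, -1.05 for Zbp1 and -0.04 for Ifi204. Zbp1 and Mx1, lower in uninjured C3H regions, thus had overlapping strains in injured ones. The effectors were at -1.07 for Ifit1, -1.44 for Ifit3, -0.54 for Ifitm3, -1.82 for Isg15, -0.57 for Usp18, 0.04 for Mx1, -0.41 for Mx2, 0.31 for Oas1a, 0.18 for Oas2, 0.97 for Oas3, -1.03 for Bst2 and -0.11 for Ifi27. All 6 Ifit genes lay below 0 (median -0.96), and so did all 5 immunity-related GTPase genes (median -0.74), with -0.84 for Igtp and -0.30 for Irgm1. Gbp2 was at -0.99 (adjusted p = 0.0787). Ifngr2 passed without C3H uninjured library 2 (-0.95, adjusted p = 0.0450) and with only the groups compared (-0.95, adjusted p = 0.0415), and Gbp2 with DESeq2 (-0.97, adjusted p = 0.0367) and quantile normalisation (-1.08, adjusted p = 0.0480).

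**Figure D5:**
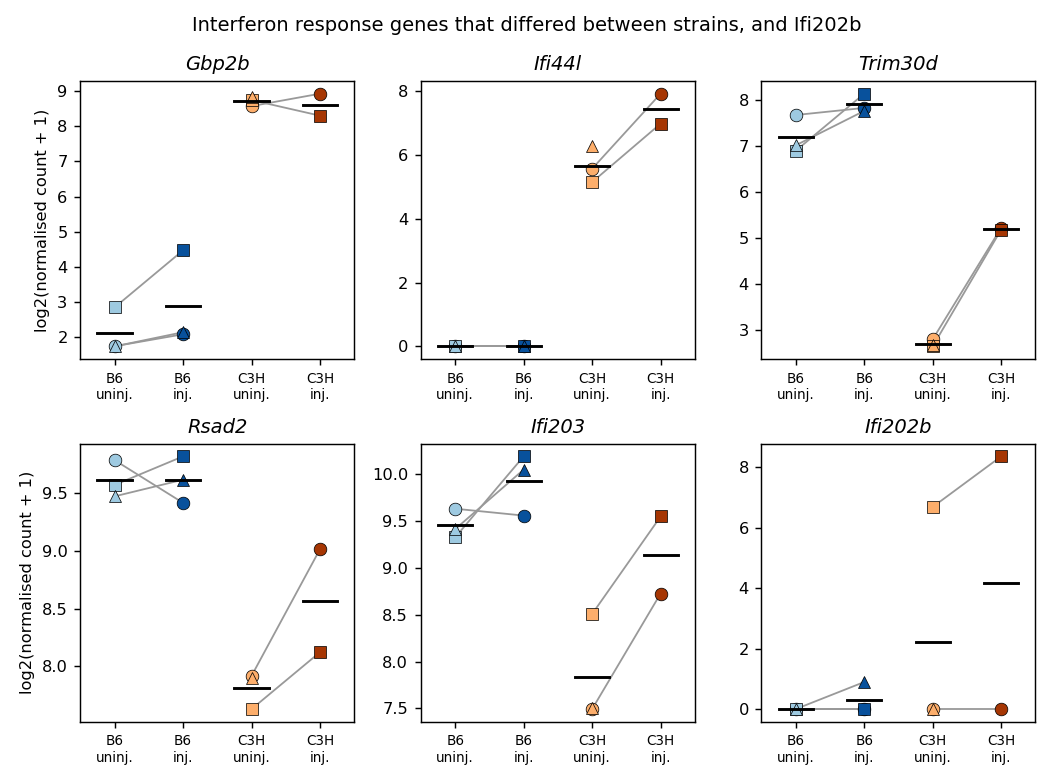
Levels of Gbp2b, Ifi44l, Trim30d, Rsad2, Ifi203 and Ifi202b (y axes, log2(normalised count + 1), each with its own range) in uninjured and injured regions of B6 and C3H hearts (x axes). Symbols are mice 1 to 3 of a strain (circle, square, triangle), lines join the regions of an animal and bars are group means; Ifi44l is at 0 in all B6 libraries and Ifi202b is high in C3H mouse 2 alone.

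Ifi202b, an Ifi200 member linked to lupus in mice, separated animals rather than groups. It was at 0, 102 and 0 in C3H uninjured and 0 and 326 in C3H injured libraries, so that all its C3H reads (97 uninjured and 461 injured) came from mouse 2. In B6 it had 0 reads in the uninjured group and 1 read in the injured group. The ratio of C3H to B6 was at least 22.8-fold in uninjured regions and 657 in injured ones (95% counting interval 117 to 25990, counting error only), and without C3H mouse 2 there were 0 reads in C3H. No fit called it, and its injury effect was 1.95 in C3H and rested on mouse 2. C3H uninjured library 2 was also the highest of its group for Ifi205 (540.2 against 67.3 and 58.6), Ifitm1 (670.0 against 96.0 and 127) and Ifi204 (729.7 against 216 and 244). Without that library Ifi205 passed for injury in C3H (1.72, adjusted p = 0.0203, against 0.69 with it) and was lower in uninjured C3H (-2.71, adjusted p = 0.00832).

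Genes of the pathway that the names do not capture were counted from fixed lists. Of 16 interferon ligand genes 0 were in the table, and they were not analysed here. Of 11 further signalling genes 2 rose in C3H, Socs3 (1.50, SE 0.45, adjusted p = 0.0258) and Ptpn6 (3.14, SE 0.31, adjusted p = 5.34e-05), both inhibitors of the receptors. That share of 18.2% was near the 15.3% of all genes that rose. The Socs3 call was lost without C3H uninjured library 1 or 3 or C3H injured library 2 (adjusted p 0.0560 to 0.222). Of 14 further nucleic acid sensing genes 8 rose in C3H (57.1%, against 15.3% of all genes). The adaptor gene Mavs was the 1 that fell (-0.84, SE 0.21, adjusted p = 0.0108). The endosomal receptor Tlr9 was at 17.8, 10.5 and 9.77 in C3H uninjured and 285 and 522 in C3H injured libraries (4.87, SE 0.75, adjusted p = 0.000857), and Tlr7 rose by 3.00 (SE 0.54, adjusted p = 0.00192). The others that rose were Ikbke, Aim2, Tmem173 (STING), Mb21d1 (cGAS), Tlr3 and Myd88, from 0.80 to 3.10. Calls were lost without C3H injured library 1 for Tmem173 (adjusted p = 0.0585) and Mavs (0.0970), and without C3H injured library 2 for Mb21d1 (0.0556) and Myd88 (0.0954). Tlr3 lost its call without C3H uninjured library 1 or 3 or either C3H injured library (adjusted p 0.0560 to 0.174).

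Of 49 other interferon-induced genes 20 rose in C3H (40.8%) and 1 fell (2.04%), with a median of 0.85. Over all genes 15.3% rose and 15.4% fell. Only the calls for Epsti1, Lgals3bp, Ms4a4c and Tor3a were kept whichever library was left out. Cxcl10, the T cell chemokine, was at 5.94, 6.28 and 16.0 in C3H uninjured and 208 and 49.5 in C3H injured libraries (3.43, SE 0.82, adjusted p = 0.00871). In B6 it ranged from 53.0 to 344 uninjured and from 90.3 to 281 injured, with overlap (0.20, SE 0.73, adjusted p = 0.921). Its rise in C3H did not pass once C3H injured library 1 was left out (adjusted p = 0.106). In uninjured regions Cxcl10 was lower in C3H (-4.10, SE 0.73, adjusted p = 0.00989), a call lost with B6 uninjured 1 or 2 left out (adjusted p 0.0516 to 0.0617). Slfn8, Cxcl9 and Trim34a were lower there too, 4 genes in all, and Cxcl9 lost its call with B6 uninjured 1 or 2 or C3H uninjured 1 or 2 left out (adjusted p 0.0755 to 0.119). In B6 injury 0 genes of any of these lists passed in limma, and 1 of 11, 4 of 14 and 7 of 49 had an unadjusted p under 0.05, against 13.4% of all genes.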

How the data were processed

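RNA of 11 heart region libraries from 6 mice was sequenced. The deposited values are a normalised signal, gene counts divided by a size factor. Per the submitters' processing notes the authors used TopHat2 2.0.11, HTSeq 0.6.1 and DESeq with build mm9. For annotation, strandedness, filters and the version of DESeq, nothing is given in the sources used here. Each library's values were whole multiples of its smallest step (tolerance 1e-06), so read counts were recovered, 9699985 to 22138459 per library.

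Log2(value + 1) was fitted with limma 3.58.1 (trended empirical Bayes, R 4.3.3) to 4 group means over 11 libraries (7 residual degrees of freedom), for the 14751 of 15274 genes that reached 10 in 2 or more libraries. P-values were two-sided and Benjamini-Hochberg adjusted over all genes tested. The 5 comparisons share libraries. The members and gene lists were chosen with earlier results of these data known. Genes named were a fixed list and, per comparison, up to 5 increases and 5 decreases, the largest among calls with mean at least 50 and no overlap between groups.

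Alternatives were edgeR 4.0.16 and DESeq2 1.42.0 on recovered reads, other normalisation, pseudocounts and filters, only the groups compared, the animal as a block, and libraries left out. On simulated data limma and edgeR stayed under a set limit of false calls, while DESeq2 made more false calls than its threshold allows. The simulated libraries were unpaired and had the same relative spread for all genes, so they do not cover the pairing of regions. The labels give the mouse of each library, so same-numbered regions of a strain are paired. Their residuals correlated at 0.276, -0.0140 and 0.524 in B6 and 0.305 and 0.575 in C3H (0.392 in the random block fit). P-values measure the spread between these samples only. Intervals and floors cover counting error only. Results for 2 of the 83 genes are not reported here, though the counts include them.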

Additional observations from a re-analysis of the deposited data

Results flagged for a closer look

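Irf5 and Ifi30 stood out because injury moved them further in C3H than in B6 hearts by a test of the difference itself, the interaction term. The C3H effect minus the B6 effect was 1.92 for Irf5 (SE 0.38, adjusted p = 0.0285) and 1.75 for Ifi30 (SE 0.39, adjusted p = 0.0497, limma). They were 2 of the 83 genes (2.41%), near the share of 1.50% over all genes. Of the fits that left out 1 library, 6 lost the Irf5 call and 10 the Ifi30 call. Both genes were higher in the injured region in 2 of 2 C3H and 3 of 3 B6 animals, by 2.60 and 2.91 against 0.56 to 1.24 for Irf5, and by 1.81 and 2.43 against 0.05 to 0.86 for Ifi30. Without both regions of C3H mouse 2 neither passed (adjusted p = 0.184 for Irf5 and 0.423 for Ifi30).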

How the results depend on the processing

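Of the comparisons of single named genes with 22 other settings, 4090 kept their side of the threshold, 47 gained a call, 123 lost one and 0 reversed; a gene without a call was counted as kept whatever its sign. Across fits that each left out 1 library, the genes higher after injury in C3H numbered 10 to 24 and the lower ones 0 to 2, with a median of 0.28 to 0.80. Over the same fits the interaction had 0 to 2 higher. Genes lower in uninjured C3H numbered 2 to 10 (median -0.69 to -0.39), and in injured regions 2 to 5 were higher and 1 to 4 lower. DESeq2 gave 1 gene higher in B6 injury, 5 in the interaction, and 14 lower in uninjured and 5 lower in injured C3H. Quantile normalisation gave 5 lower in injured C3H, and a pseudocount of 0.5 gave 1 for the interaction. With only the groups compared 18 genes were called in C3H injury, against 26 with all groups fitted, and 0 of the 18 fell. In the paired fits, the animal as a fixed block gave 1 gene lower in C3H injury and as a random block 4 for the interaction; calls the block changed stand beside the genes the text names. Without C3H mouse 2, chosen after seeing the data, C3H injury gave 13 higher and 1 lower (median 0.73), the interaction 0, and injured regions 2 higher and 1 lower in C3H. Without B6 mouse 3, also chosen so, the interaction gave 1, uninjured regions 14 lower (median -0.68) and injured regions 6 lower. Fewer samples enter the fits that leave libraries out or use only the groups compared. In the fixed block fit C3H mouse 3, which has no injured region, adds nothing to the injury effect. That fit has 3 residual degrees of freedom. For the other settings the cause was not tested. Fits of only the groups compared give no interaction value, and the fixed block no strain difference. Genes with few reads, such as Ifi202b in B6, are limited by depth.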
